A study of Sus scrofa with 4 samples.

Results

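AGR2 and OLFM4 were followed through single-cell RNA-seq libraries of organoids grown from pig pancreatic duct (PPDO) and of primary pig pancreas. Both genes were chosen by name, as 2 of the 30282 gene identifiers in the deposited matrices, and all features carrying either name were summed. AGR2 encodes a member of the protein disulfide isomerase family that resides in the endoplasmic reticulum, where it is needed for the folding of mucins in goblet and other secretory cells. OLFM4 encodes a secreted glycoprotein with an olfactomedin domain and is used as a marker of stem cells at the base of intestinal crypts. LGR5, a receptor for R-spondins and a WNT target, marks the same crypt cells, so AGR2 and OLFM4 were also read in duct cells with and without LGR5.

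The 4 libraries were made with a droplet assay that counts unique molecular identifiers (UMIs, each a captured transcript) at the 3′ end. PPDO replicates 1 and 2 came from 2 organoid lines, which the paper describes as 1 late postnatal and 1 adult. They were grown for 4 and 7 passages in a medium with WNT3a, R-spondin-1, noggin, EGF and FGF10. Which replicate holds which line was not given in the sources used here. The paper's filtering methods label both samples with ages inside its own late postnatal range, so the adult label is uncertain. The study's pigs were of German landrace background, and the genotype of the PPDO donors was not given. Primary pancreas replicates 1 and 2 came from 2 German landrace pigs, both aged PN150, processed on different days. Taking the replicate numbers to be the sample numbers of the methods, the first was wild type and was enriched by hand for duct fragments. The second carried INS-eGFP, a reporter driven by the porcine insulin promoter, and pooled cells sorted for the ductal lectin DBA, cells sorted for eGFP and cells of the whole suspension. The shares of cell types in the 2 primary libraries were therefore set by the isolation. Origin and culture differ together between PPDO and primary duct cells and cannot be told apart. Each group had 2 samples, so no p-value speaks for pigs or lines beyond them. Fits on summed counts moderated the spread over genes, and those by class or LGR5 status shared it over all their sums.

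After filtering, 8885 and 7337 PPDO cells and 5082 and 4262 primary cells remained, with median depths of 34176, 34459, 11328 and 23643.5 UMIs per cell. Pairs of libraries shared 10 to 23 cell barcodes. Primary cells fell into ductal-like, endothelial-like, immune-like, endocrine-like, acinar-like, stellate-like and schwann-like clusters, named from fixed markers. A cluster of 363 cells, all of replicate 2, met 2 of 10 acinar markers and was left unnamed. An acinar-like cluster of 142 cells of replicate 1 met 4 of 10 acinar markers, and these cells were unnamed at a finer clustering. The ductal-like class held 2079 and 1188 cells at median depths of 18503 and 20558.5 UMIs. Against these cells, PPDO kept KRT7 (389 and 384 CPM, UMIs of the gene per 1000000 UMIs, in PPDO against 568 and 596 in ductal-like cells), while SCTR, the secretin receptor, was at 1.14 and 0.79 CPM against 577 and 964, and SOX9, a duct transcription factor, at 3.3 and 1.4 CPM against 322 and 352.

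AGR2 lay on chromosome 9 at 86042070 to 86053893 (RefSeq, Sscrofa11.1), and its neighbour TSPAN13, a tetraspanin gene, at 85996381 to 86033358, 8711 bases away. OLFM4 lay on chromosome 11 at 26252948 to 26375531. Each member had a pair of features in the authors' annotation. One was the gene model, and the other a 10 kb extension of it, whose side relative to the gene was not given in the sources used here. AGR3, the paralogue of AGR2, was not analysed here.

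AGR2 was high in PPDO and about an order lower in primary duct cells. The PPDO libraries held 27025 and 24008 AGR2 UMIs, or 89.8 CPM (95% exact Poisson interval 88.7 to 90.9) and 91.5 CPM (90.4 to 92.7). Ductal-like cells held 440 and 266 UMIs, or 10.1 CPM (9.18 to 11.09) and 10.5 CPM (9.27 to 11.8). These intervals, like all those on counts and shares here, cover counting error only. The means were 90.6 ± 1.21 CPM in PPDO and 10.3 ± 0.27 CPM in ductal-like cells (SD, n = 2 each). On counts summed per library, AGR2 rose in PPDO by 3.60 (SE 0.15, 95% interval 3.19 to 4.0) on the log2 scale, a 12.1-fold difference (9.13 to 16.0), with an adjusted p = 0.000507 (edgeR's quasi-likelihood test, Benjamini-Hochberg over all genes). In that comparison 43.7% of all genes passed an adjusted p of 0.05, 22.8% higher and 20.9% lower in PPDO. Fewer genes than these 10288 of 23545 were called without PPDO replicate 1 or 2. Without each library in turn the AGR2 difference lay between 3.49 and 3.65. Such fits have 1 library in a group and take their spread from the other group. With library totals in place of trimmed-mean (TMM) scaling the difference was 3.14, or 8.81-fold, and the median over all genes moved from 0.008 to −0.45. The calls over all genes moved with it, from 5369 higher and 4919 lower to 3240 higher and 6988 lower.

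Cells differ in depth, so each cell was also thinned to 3000 UMIs before counting those with an AGR2 UMI. At that depth 21.8% of PPDO cells in replicate 1 (95% exact binomial interval 20.9 to 22.7) and 21.3% in replicate 2 (20.4 to 22.3) held AGR2. The ductal-like shares were 2.45% (1.83 to 3.21) and 1.01% (0.523 to 1.76). In T and NK-like cells, which should lack the gene, the thinned share was 0% of 237 cells and 1.35% of 74, the latter a single cell, at median depths of 6017 and 5486 UMIs. That cell's UMI fell in the extension, and with 1 cell its interval (0.0342 to 7.30%) covers both ductal-like shares, so the ductal-like share of replicate 2 could not be set apart from it at this depth. The difference in shares between PPDO and ductal-like cells was 19.8 percentage points, and the exact permutation test (two-sided) gave p = 0.333, the smallest that 2 against 2 samples allow. Before thinning, the shares were 75.8% and 75.9% in PPDO and 13.3% and 5.72% in ductal-like cells.

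OLFM4 was close to undetected in both. The PPDO libraries held 12 and 7 OLFM4 UMIs, or 0.04 CPM (0.0206 to 0.0696) and 0.03 CPM (0.0107 to 0.0550), each UMI in a different cell. Ductal-like cells held 9 and 4 UMIs, or 0.21 CPM (0.0945 to 0.392) and 0.16 CPM (0.0430 to 0.404). Pooled over libraries, the 13 ductal-like UMIs gave a rate 5.59 times (95% interval 2.54 to 11.9) that of the 19 PPDO UMIs. The fitted change was −2.02 (SE 0.49, −3.31 to −0.73) on the log2 scale with an adjusted p = 0.0296 by edgeR's quasi-likelihood test with Benjamini-Hochberg adjustment. The call was lost with DESeq2 (adjusted p = 0.12), without the filter on low counts (0.0552), with the replicate number as a block and without either primary library. After thinning to 3000 UMIs, OLFM4 was left in 1 of 8824 cells in PPDO replicate 1 (0.0113%), in 0 of 7327 in replicate 2, in 1 of 2079 ductal-like cells (0.0481%) and in 0 of 1188.

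**Figure D1:**
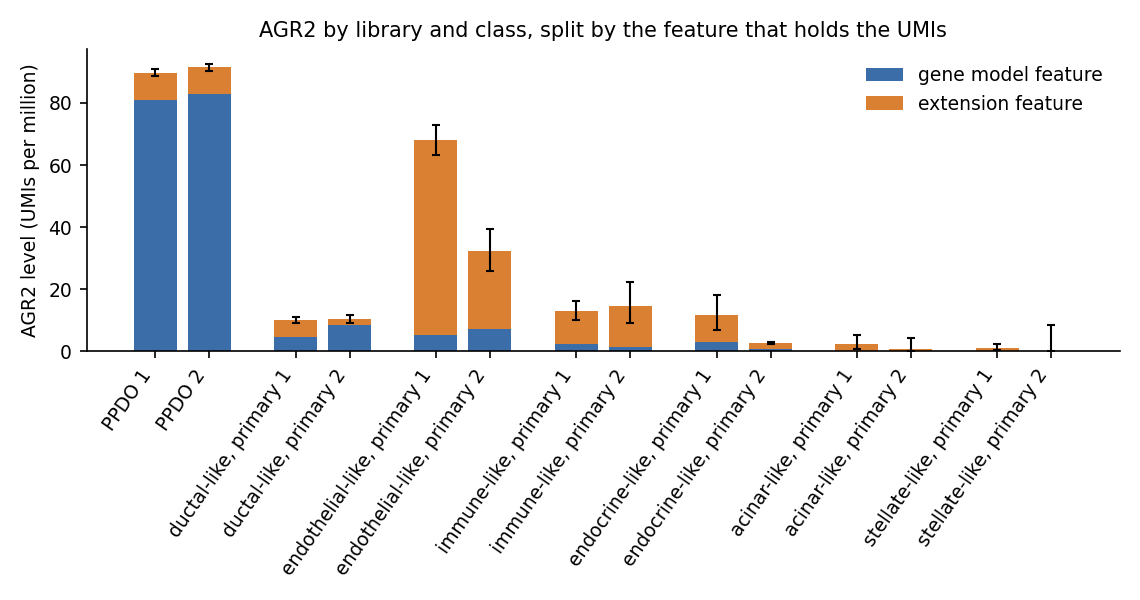
AGR2 level (CPM, y axis) in PPDO and in each primary class of each library (x axis), stacked by the feature the UMIs fell in, with 95% Poisson intervals on the sum. PPDO stand at 89.8 and 91.5 CPM with most of the bar in the gene model, while the endothelial-like bars, 67.9 and 32.2 CPM, are mostly extension.

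Among the primary classes, endothelial-like cells stood highest in summed AGR2. They held 814 UMIs in 1034 cells of replicate 1, or 67.9 CPM (63.3 to 72.8), and 94 UMIs in 264 cells of replicate 2, or 32.2 CPM (26 to 39.4). Thinned shares were 18.6% (16.2 to 21.1) and 7.95% (4.99 to 11.9). With the library as a block, AGR2 was higher in endothelial-like than in ductal-like cells by 2.29 (SE 0.41, 1.42 to 3.15) on the log2 scale, 4.87-fold (2.67 to 8.90), adjusted p = 0.000282 (edgeR quasi-likelihood, Benjamini-Hochberg), where 36.9% of all genes were called, 18.4% higher and 18.5% lower. Without primary replicate 1 the difference was 1.72 and without primary replicate 2 it was 2.84. The share difference was 11.5 points, with p = 0.333 by the exact permutation test. That test treated the shares as 2 against 2 separate libraries, although both classes came from the same 2 libraries. It ignores this pairing, so its p cannot weigh the difference.

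Most of the endothelial-like signal lay outside the gene model. The gene model held 64 of the 814 UMIs in replicate 1 and 21 of the 94 in replicate 2, and the extension held the rest. In PPDO, 90.1% and 90.6% of AGR2 UMIs fell in the gene model. Fitted on the gene model alone, endothelial-like and ductal-like cells differed by 0.03 on the log2 scale (adjusted p = 0.98, edgeR with Benjamini-Hochberg), and on the extension alone by 3.67 (adjusted p = 4.91e-06). Gene-model levels were 81.9 ± 1.46 CPM in PPDO and 6.26 ± 1.31 CPM in endothelial-like cells (SD, n = 2). On the gene model alone AGR2 in PPDO over ductal-like cells rose by 4.14 (adjusted p = 0.00107, edgeR with Benjamini-Hochberg), while on the extension alone the difference was 1.62 (SE 0.58, adjusted p = 0.0804).

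TSPAN13 was highest where the extension was. It reached 269.5 and 308.4 CPM in endothelial-like cells against 77.1 and 40.1 CPM in ductal-like and 71.0 and 79.7 CPM in PPDO. Over 32 sums of primary clusters per library, log2 levels of the extension and of TSPAN13 correlated with r = 0.87, and those of the gene model with r = 0.79. Within replicate 1 these were 0.91 and 0.76, and within replicate 2 they were 0.87 and 0.84. These sums share libraries, depth and normalization, so the coefficients are descriptions. Within endothelial-like cells of replicate 1, thinned to equal depth, 20.5% of the 570 cells with a TSPAN13 UMI also had an extension UMI, against 13.6% of the 464 without. In replicate 2 the shares were 9.40% and 3.48%. Gene-model AGR2 gave 1.58% and 1.29% in the same split of replicate 1 and 0.671% and 1.74% in replicate 2. The gene model was also more frequent with TSPAN13 in other cells of replicate 1 and in PPDO. In immune-like cells of replicate 1, 10.5% of cells with TSPAN13 and 1.75% of those without had an extension UMI, and 5.26% and 0.194% a gene-model UMI. In ductal-like cells of replicate 1 the extension gave 3.62% and 1.22%, and the gene model 1.95% and 0.581%. In replicate 2, immune-like cells had the extension in 6.06% and 2.83% and the gene model in 0 cells. Ductal-like cells there had the extension in 0 of 129 cells with TSPAN13 and in 2 of 1059 without, and the gene model in 1.55% and 0.755%. In PPDO the extension share was 3.0% against 2.86% in replicate 1 and 3.42% against 2.38% in replicate 2, and the gene-model share 22.3% against 18.8% and 21.4% against 18.8%. Whether extension UMIs in endothelial-like cells are TSPAN13 transcripts was not tested.

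**Figure D2:**
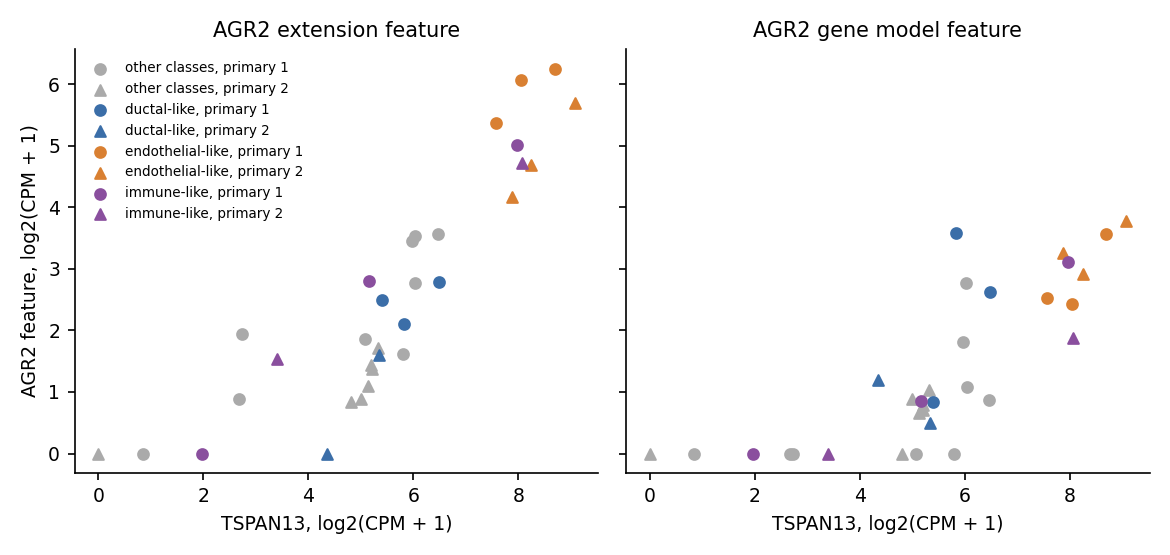
AGR2 level (y axis) against TSPAN13 level (x axis), both as log2(CPM + 1), over primary clusters per library, with the AGR2 extension on the left and the AGR2 gene model on the right. Extension levels climb with TSPAN13 (r = 0.87 over 32 sums), as do gene-model levels (r = 0.79), and the endothelial-like clusters stand higher on the left than on the right.

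Summed AGR2 was read in each endothelial-like cluster. The artery-like cluster held 86.1 and 63.3 CPM, capillary-like clusters held 70.7 CPM (728 cells of replicate 1) and 31.2 CPM (198 cells of replicate 2), and the vein-like cluster held 45.2 and 25.5 CPM. The gene model alone gave 10.8 and 12.7 CPM in the artery-like cluster (18 and 3 UMIs), 4.36 and 6.52 CPM in the capillary-like clusters and 4.78 and 8.51 CPM in the vein-like cluster. TSPAN13 in the artery-like cluster was 411 and 536 CPM. The endothelial-like class as a whole held PECAM1, an endothelial adhesion molecule, at 2254 and 2374 CPM, and KRT7 at 3.25 and 5.48 CPM.

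The other classes were lower and also drew on the extension. Immune-like cells held 73 UMIs (12.9 CPM, 10.1 to 16.2) and 22 UMIs (14.7 CPM, 9.22 to 22.3), of which 13 and 2 were in the gene model. The difference from ductal-like cells, 0.39 (−0.53 to 1.31) on the log2 scale, did not pass the test (adjusted p = 0.509 by edgeR with Benjamini-Hochberg; 41.7% of genes called, 19.1% higher and 22.6% lower). On the extension alone it was 1.81 and passed (adjusted p = 0.00472), and on the gene model alone −1.60 (adjusted p = 0.0638). Within the immune-like cells a myeloid-like cluster led by CD300C and AIF1 stood at 38.8 and 28.0 CPM, with TSPAN13 at 250 and 268 CPM. The level of another myeloid-like cluster, led by CCL8 and IL1A, is not given here. T and NK-like cells had 0 and 1 UMI of AGR2, with TSPAN13 at 2.93 and 9.58 CPM.

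Stellate-like cells were at the low end. Most of this class, 408 of 697 cells in replicate 1 and 41 of 48 in replicate 2, came from a cluster that met 4 of 10 stellate markers and was led by MYH11, ACTA2 and RGS5, genes of smooth muscle and pericytes, and the rest from clusters led by genes such as CCDC80, DPT and APOD. The class held 8 UMIs in replicate 1 (1.22 CPM), all in the extension and 3 of them in the MYH11 cluster, and 0 UMIs in replicate 2, which allows up to 6.91 CPM. AGR2 was lower there than in ductal-like cells by −3.60 (SE 0.66) on the log2 scale (adjusted p = 0.000416, edgeR with Benjamini-Hochberg; 31.4% of genes called, 16.6% higher and 14.8% lower). TSPAN13 was at 4.56 and 0 CPM in these cells.

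Endocrine-like cells differed between the libraries, with 19 UMIs in 73 cells of replicate 1 (11.6 CPM, 7.0 to 18.2) and 224 UMIs in 2203 cells of replicate 2 (2.64 CPM, 2.3 to 3.0). Their difference from ductal-like cells was −0.23 (−1.14 to 0.68; adjusted p = 0.739; 33.6% of genes called, 17.4% higher and 16.3% lower), and that of acinar-like cells, with 6 and 1 UMIs, was −1.22 (−2.64 to 0.20; adjusted p = 0.203; 25.1% of genes called, 9.64% higher and 15.4% lower), both by edgeR with Benjamini-Hochberg adjustment. With library totals alone the endocrine-like difference was −1.05, as the calls over all genes went from 2886 higher and 2708 lower to 1760 and 6551 and their median from −0.015 to −0.88. With the same scaling the acinar-like difference was −2.71 and passed (adjusted p = 0.00531), and the all-gene median in that comparison moved from −0.49 to −2.01. Schwann-like cells of replicate 1 held 35 UMIs, or 11.7 CPM, 3 of them in the gene model. By summed level, PPDO came first and endothelial-like cells second. This ranks few libraries, and how many of all genes separate these groups was not counted. Immune-like cells, at 12.9 and 14.7 CPM, lay above ductal-like cells without passing the test, and ductal-like and endocrine-like cells overlapped. By the gene model alone, endothelial-like cells at 5.34 and 7.19 CPM overlapped ductal-like cells at 4.64 and 8.52 CPM.

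OLFM4 was read in the primary classes at the limit of detection. Stellate-like cells of replicate 1 held 5 UMIs (0.76 CPM), endocrine-like cells of replicate 2 held 4 UMIs (0.05 CPM) and endothelial-like cells of replicate 1 held 1. Immune-like, acinar-like and schwann-like cells held 0 UMIs, which in the immune-like cells of replicate 1 allows up to 0.53 CPM, above the ductal-like level. OLFM4 fell under the filter on low counts in every class comparison. Fitted without that filter, and in both LGR5 splits, its adjusted p ran from 0.299 to 0.982 over 8 comparisons. OLFM4 also marks neutrophils in blood, and these data held no immune-like cell with an OLFM4 UMI.

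RNA released from broken cells reaches every droplet. From INS, the insulin gene, in immune-like cells its share was estimated at 1.97% and 3.1% of UMIs in the 2 primary libraries. Free RNA at those shares would give 0.37 and 0.16 CPM of AGR2, and 0.004 and 0.002 CPM of OLFM4. From TFF2, an abundant acinar transcript here, the same estimate gave 11.8% and 12.2%, or 2.19 and 0.63 CPM of AGR2. By that estimate the AGR2 of stellate-like cells, at 1.22 CPM in replicate 1, lay below free RNA and that of acinar-like cells, at 2.40 and 0.79 CPM, close to it, while ductal-like, endothelial-like and immune-like cells lay above both estimates in each library. PPDO held no cell class for such an estimate.

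Within PPDO, AGR2 was present in all 9 clusters and differed 8.57-fold in replicate 1 and 4.98-fold in replicate 2 between the highest and the lowest. The ductal-like PPDO cluster, led by SPP1, CFD, TCN1 and MUC13, stood highest at 240.6 and 215.4 CPM, with 45.3% and 37.9% of its thinned cells holding AGR2. It was also small, with 267 and 161 cells. A glycolysis-like cluster with IGFBP6 and PTGS2 followed at 111 and 119 CPM. The proliferating-like cluster was at 91.0 and 85.3 CPM, the basal-like cluster at 86.1 and 82.2 CPM, and the WNT-like cluster with CXCL14 and LGR6 at 80.1 and 87.3 CPM. These 3 lay close to the mean of all PPDO cells.

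The lowest levels were in clusters that matched no fixed marker list. A cluster with PLXDC2, SPINK5 and KLK7 held 63.1 and 55.8 CPM, and one with S100A8 and SPRP held 28.1 and 43.3 CPM, the latter on 13 and 72 UMIs. Cluster levels in the 2 replicates correlated with r = 0.967 over 9 clusters, a description since the clusters were drawn on both libraries together. AGR2, OLFM4 and LGR5 were left out of the genes used to draw the clusters. No test was made between clusters, and their levels are a description. OLFM4 gave 0 to 4 UMIs per cluster and library.

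**Figure D3:**
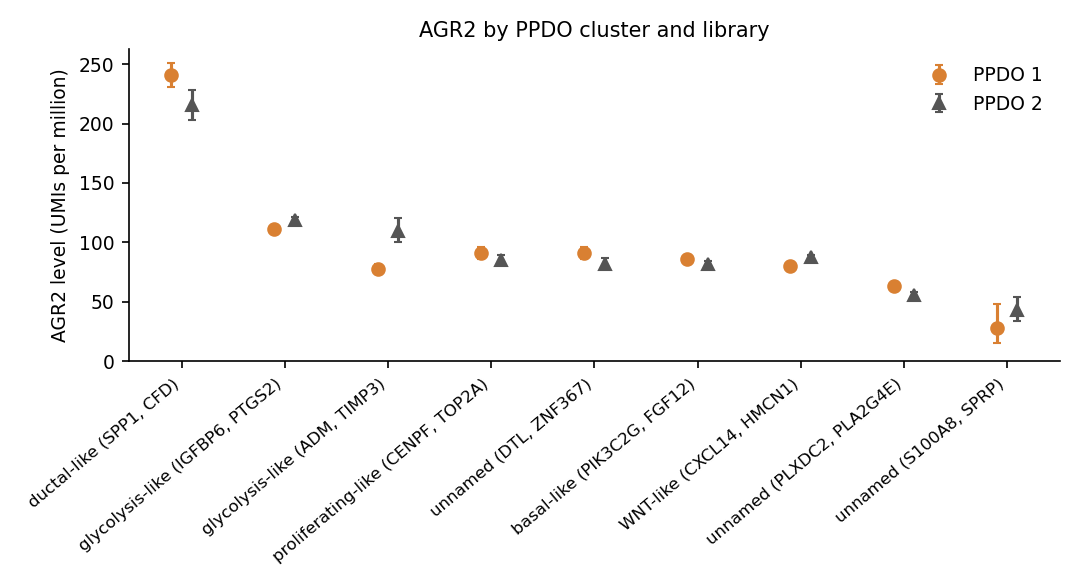
AGR2 level (CPM, y axis) in each PPDO cluster (x axis) of replicates 1 and 2, with 95% Poisson intervals. The ductal-like cluster stands above the others at 240.6 and 215.4 CPM in both replicates.

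In primary duct cells AGR2 went with LGR5. The population holding both had been described from these same cells, so the split is not independent evidence of its direction. An LGR5 UMI was seen in 34 ductal-like cells of replicate 1 and 38 of replicate 2. AGR2 stood at 112.7 and 223.1 CPM in them, against 7.99 and 2.46 CPM in ductal-like cells without LGR5. Thinned shares were 14.7% and 18.4% with LGR5, against 2.25% and 0.435% without. Median depths were 25198.5 and 23665 UMIs with LGR5 and 18442 and 20511 UMIs without. On sums per library and LGR5 status with a library block, AGR2 rose with LGR5 by 4.81 (SE 0.32, 4.15 to 5.48) on the log2 scale, 28.1-fold (17.8 to 44.5), adjusted p = 7.83e-11 (edgeR quasi-likelihood, Benjamini-Hochberg), where 9.02% of all genes were called, 4.45% higher and 4.58% lower. Taking LGR5 status after thinning, the difference was 5.36. On the gene model alone it was 6.36, and on the extension alone 0.12 (adjusted p = 0.93). Without primary replicate 1 the difference was 6.24 and without primary replicate 2 it was 3.49. Both lay outside the interval of the fit, which also draws its spread from PPDO sums.

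AGR2 was also read by the number of LGR5 UMIs in a cell, and it did not rise steadily with that number. Cells with 1 LGR5 UMI had 4.29 CPM of AGR2 in replicate 1 (16 cells, 2 UMIs) and 20.8 CPM in replicate 2 (21 cells, 11 UMIs, 10 of them in 1 cell). Cells with 3 or more LGR5 UMIs had 256.5 CPM (208 to 313; 16 cells) and 424 CPM (357 to 500; 14 cells). In each of the latter groups 7 cells held AGR2, with up to 26 and 60 UMIs in a cell. The 3 cells with exactly 2 LGR5 UMIs in replicate 2 were at 844 CPM, but all 55 AGR2 UMIs there came from 1 cell.

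PPDO showed no such step. With an LGR5 UMI, 2449 and 1188 PPDO cells had AGR2 at 91.6 and 94.9 CPM, and without LGR5 the levels were 88.9 and 90.8 CPM. At 3 or more LGR5 UMIs they were 93.3 and 100.4 CPM. The fitted difference was −0.11 (SE 0.18, −0.49 to 0.27) on the log2 scale, adjusted p = 0.784 by edgeR with Benjamini-Hochberg adjustment (16.9% of genes called, 6.5% higher and 10.4% lower), and 0.05 on library totals. That scaling turned the split of all calls from 1365 higher and 2192 lower to 4032 higher and 1105 lower and moved the all-gene median from −0.015 to 0.14, while relative log expression factors gave 1805 and 1777. Thinned shares were 22.6% and 23.2% with LGR5, against 21.5% and 21.0% without. LGR5 itself stood at 25.4 and 11.6 CPM in PPDO and at 7.28 and 12.5 CPM in ductal-like cells. The effect of LGR5 status on AGR2 differed between primary and PPDO cells by 4.92 (SE 0.36, 4.17 to 5.67), adjusted p = 6.47e-10 (edgeR, Benjamini-Hochberg; 8.63% of genes called, 5.05% higher and 3.58% lower). On the extension alone that difference was 0.40 (adjusted p = 0.763), and without the library block it was 4.86 (adjusted p = 0.0714). Without primary replicate 1 it was 6.33, and without primary replicate 2 it was 3.59, both outside the interval of the fit.

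**Figure D4:**
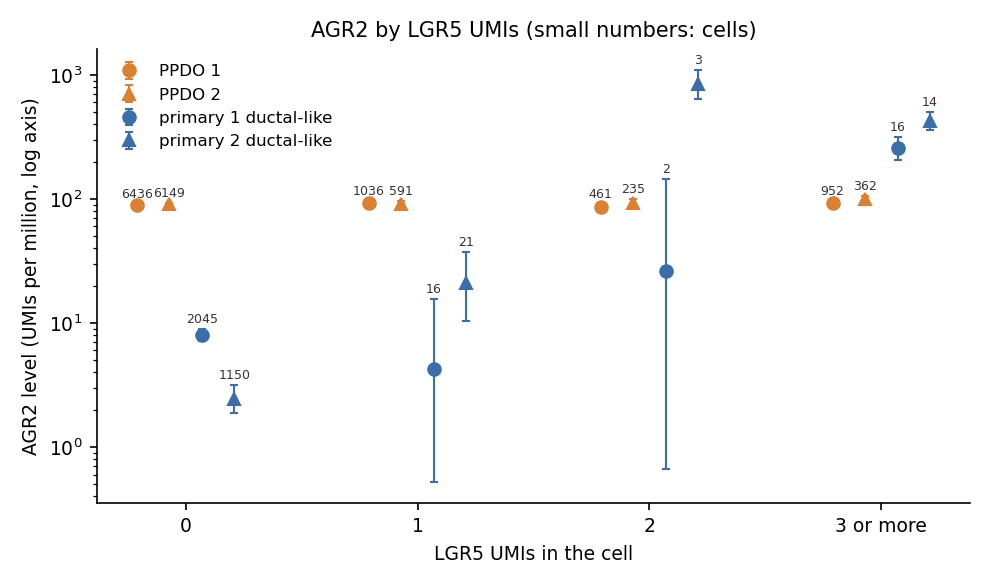
AGR2 level (CPM, log axis) in cells with 0, 1, 2 and 3 or more LGR5 UMIs (x axis) for PPDO and primary ductal-like cells of each library, with 95% Poisson intervals and the number of cells above each point. PPDO stay near 90 CPM throughout, while primary ductal-like cells stand at 7.99 and 2.46 CPM without LGR5 and at 256.5 and 424 CPM with 3 or more UMIs, with few cells and no steady rise between.

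Gene-model AGR2 of primary duct cells sat in few cells, more so in replicate 2, while summed AGR2 was spread more widely. The 5 cells with the most gene-model UMIs held 44.6% and 84.3% of all gene-model UMIs of the class in the 2 libraries, against 0.920% and 1.24% in PPDO. Those totals were 202 and 216 UMIs against 24343 and 21762 in PPDO, over more cells, which by itself lowers the PPDO shares. The top 10 cells held 52.5% and 94.9%. Summed over features, duct cells without LGR5 outside the small cluster described below held 324 UMIs in 261 of 2026 cells of replicate 1. In replicate 2 they held 59 UMIs in 57 of 1148 cells. At 5 or more gene-model UMIs, a limit chosen after the values were seen, 5 and 7 primary ductal-like cells remained, of which 4 and 7 held LGR5. The same limit kept 1785 PPDO cells (20.1%) in replicate 1 and 1605 (21.9%) in replicate 2. Of these, 36.4% and 19.8% held LGR5, against 25.4% and 15.2% of the other PPDO cells. Their median depths were also higher, at 40616 and 38344 UMIs against 32154 and 33412, and depth was not equalized here. At a finer clustering, 30 and 17 duct cells formed a cluster of their own led by TCN1, TM4SF20 and S100A2, with LGR5, PIGR and TFF3, at 163.9 and 556.9 CPM of AGR2. Inside it, cells with LGR5 held 296 and 611 CPM, and cells without LGR5 held 46.5 CPM (19 cells, 17 UMIs) and 29.1 CPM (2 cells, 1 UMI). AGR2 and LGR5 were left out of the genes used to draw the cluster. It was picked as the one with the highest LGR5 level, so these levels are a description. Outside it, duct cells with LGR5 held 5.41 CPM (23 cells, 3 UMIs) and 1.70 CPM (23 cells, 1 UMI), close to the 7.66 and 2.42 CPM of those without.

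OLFM4 could not be placed in this split. Primary duct cells with LGR5 held 2 OLFM4 UMIs and those without held 11, a rate ratio of 6.77 with a counting interval from 0.73 to 31.0. Both of the former lay in the same small cluster of replicate 2, 17 cells at 5.41 CPM. In that library 2 of the 7 cells with 5 or more gene-model UMIs of AGR2 also held OLFM4 (median depth 26587 UMIs), as did 2 of the other 1181 duct cells (20544 UMIs), whereas in replicate 1 none of the 5 such cells did. In PPDO, 6 UMIs with LGR5 and 13 without gave a ratio of 1.34 (0.42 to 3.77).

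Mucin and goblet genes were next read in the same split of primary duct cells. MUC4, MUC5AC, MUC5B and MUC6 were not matched by an unshared gene symbol and were not analysed here. MUC2, the intestinal mucin that AGR2 is known to help fold, lay at 0 to 0.041 CPM in duct cells and PPDO. The 12 genes tested therefore hold no gel-forming mucin. Of these 12, 6 rose and 0 fell with LGR5, where 4.45% of all genes rose and 4.58% fell, with a median of 1.62 on the log2 scale against −0.11 over all genes. The count was 9 and 0 without primary replicate 1, and 4 and 1 without primary replicate 2. TFF3, a trefoil peptide secreted with mucins, was at 42.1 and 83.4 CPM with LGR5 and at 1.05 and 0.25 CPM without, a rise of 6.21 (adjusted p = 1.92e-11). SPDEF, a goblet cell transcription factor, was at 10.2 and 19.5 CPM against 0.98 and 1.35, a rise of 3.50 (adjusted p = 7.24e-06). The other members that rose are named after their values were seen. ERN2, the IRE1 homologue of mucous epithelia, rose by 5.48 (adjusted p = 1.50e-11), and MUC13, a membrane mucin, by 4.02 (adjusted p = 1.03e-06). CLCA1, a goblet cell product, rose by 2.06 (adjusted p = 0.0356) and GALNT12, which starts mucin O-glycans, by 1.20 (adjusted p = 0.00492). All are from edgeR's quasi-likelihood test with Benjamini-Hochberg adjustment.

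In PPDO the same split gave 1 of these 12 genes higher and 3 lower with LGR5, where 6.5% of all genes were higher and 10.4% lower. Calls in this split, in this list as well, fell without PPDO replicate 1 or 2. Such fits hold 1 PPDO sum with LGR5 and 1 without, and take their spread from the primary sums alone. Without the library block 1 gene was called in all, and in primary cells 224 genes, 3 of them higher among these 12. TFF2 fell by 2.35, MUC13 by 1.21 and CREB3L1, an endoplasmic reticulum stress transducer, by 0.87, while CLCA1 rose by 0.61. TFF2, CREB3L1 and CLCA1 differed in the same direction in both PPDO libraries, all at low levels. TFF2 was at 0.24 and 0.17 CPM with LGR5 and 1.04 and 0.85 without, and CREB3L1 at 0.90 and 0.49 against 1.49 and 0.79. CLCA1 was at 1.65 and 1.34 CPM against 0.93 and 0.83. MUC13 differed in replicate 1 alone, at 1.49 CPM with LGR5 and 4.62 without, against 1.32 CPM in both in replicate 2. Tested as a difference between primary and PPDO cells, 7 of the 12 had a larger LGR5 effect in primary cells and 0 a smaller one, with a median of 1.60 against −0.078 over all genes, of which 5.05% were called larger and 3.58% smaller. Without PPDO replicate 1, without PPDO replicate 2 or without primary replicate 2, 4 of the 12 were called larger, without primary replicate 1 it was 9, and without the library block 2.

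**Figure D5:**
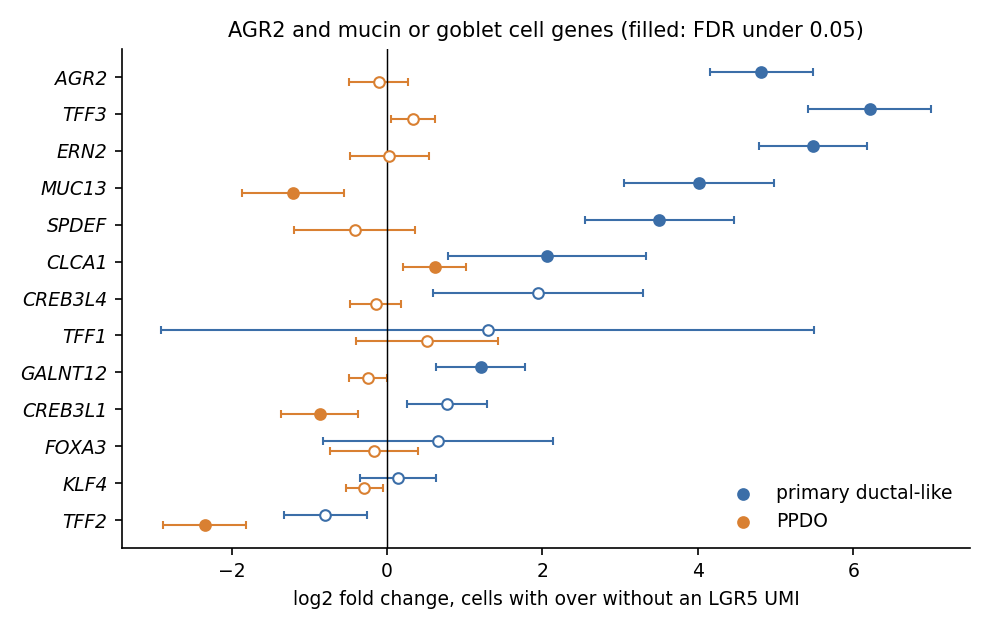
Log2 fold change of cells with LGR5 over cells without (x axis, 95% intervals) for AGR2 and 12 mucin and goblet genes (y axis), in primary ductal-like cells and in PPDO; filled points have an adjusted p under 0.05. AGR2 lies at 4.81 in primary cells and at −0.11 in PPDO, and TFF3 at 6.21 in primary cells.

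Crypt stem cell genes, the company OLFM4 keeps in the intestine, gave 5 higher and 2 lower of 19 with LGR5 in primary duct cells, and 12 higher and 1 lower of 19 in PPDO. All-gene shares were 4.45% higher and 4.58% lower in primary cells, and 6.5% and 10.4% in PPDO. Without PPDO replicate 1 or 2 the PPDO counts were 5 and 4 higher with 0 lower, and without the library block 1 higher, beside 3 higher in primary cells. LGR5 is among the higher ones by the way the cells were split. Chosen after their values were seen, NKD1, a WNT feedback inhibitor, rose by 5.62 in primary cells and by 1.45 in PPDO, and EPHB2, an ephrin receptor of crypt progenitors, by 2.70 and 1.18. SOX9 fell by 0.37 and CFTR, the chloride channel of duct cells, by 0.64 in primary cells. Of the 16 genes tied to OLFM4 by regulation or partnership, 2 rose and 2 fell in primary cells, and 1 rose and 9 fell without primary replicate 2. LCN2, a secreted iron-siderophore binder of inflamed epithelia, stood at 35.3 and 115 CPM with LGR5 and at 6.42 and 7.49 CPM without, a rise of 3.23. Unfolded protein response genes gave 1 higher and 1 lower of 10 in primary cells but 0 higher and 8 lower in PPDO, where the chaperone HSPA5 fell by 0.57 and the transcription factor XBP1 by 0.56. None of the 10 was called in PPDO when either PPDO replicate or the library block was left out, and 4 were lower with library totals.

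Between PPDO and primary duct cells, the family of AGR2 was read first. Of 14 protein disulfide isomerase genes, 10 rose and 1 fell in PPDO, with a median of 0.75 on the log2 scale against 0.008 over all genes, of which 43.7% were called, 22.8% higher and 20.9% lower. PDIA5 was at 11.8 and 10.8 CPM in PPDO and 2.16 and 3.43 CPM in ductal-like cells, a rise of 2.50 (adjusted p = 0.00253). TXNDC5 was at 50.6 and 52.9 CPM against 17.6 and 19.8, a rise of 1.93 (adjusted p = 0.00139), and TMX3 rose by 1.46 (adjusted p = 0.00296). PDIA2, a pancreas-enriched isomerase, was the member that fell, by 2.86 (adjusted p = 0.00296), from 4.0 and 4.18 CPM to 0.41 and 0.42. PDIA2 stood at 1035 and 1321 CPM in acinar-like cells and at 4.92 and 3.77 CPM in endothelial-like cells, so its ductal-like level was that of an unrelated class, and the part of acinar RNA in its fall was not tested. Without PPDO replicate 1 or 2, 7 members of this list passed in place of 11. With library totals 6 rose and 2 fell. These and the following p-values are from edgeR's quasi-likelihood test with Benjamini-Hochberg adjustment.

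Of the 12 mucin and goblet genes, 2 rose and 3 fell between PPDO and primary duct cells, with a median of −0.49. That is near the 43.7% called over all genes, and 3 in all passed when either PPDO replicate was left out. With library totals 1 rose and 5 fell. TFF3 rose by 3.07 (adjusted p = 0.00813), at 21.4 and 9.58 CPM in PPDO against 1.88 and 3.27. TFF2, the trefoil peptide of gastric mucous cells, fell by 4.97 (adjusted p = 0.00139), to 0.78 and 0.73 CPM from 38.4 and 25.7. TFF2 stood at 5821 and 8552 CPM in acinar-like cells and at 26.3 and 12.7 CPM in immune-like cells, and the part of acinar RNA in its ductal-like level was not tested. CREB3L1 fell by 4.51 (adjusted p = 0.00511), and SPDEF by 2.33 (adjusted p = 0.0091) to 0.22 and 0.23 CPM. Unfolded protein response genes gave 3 higher and 2 lower of 10 (median 0.05; 2 in all when either PPDO replicate was left out; 1 higher and 4 lower with library totals), with the lectin chaperone CALR higher by 1.45 (adjusted p = 0.00239) and HSPA5 by 1.23 (adjusted p = 0.0367), and XBP1 falling by 1.5 (adjusted p = 0.00544) and the stress kinase EIF2AK3 by 2.23 (adjusted p = 0.0145).

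The lists built around OLFM4 were called at rates near the 43.7% of all genes. Of 19 crypt stem cell genes 6 rose and 4 fell in PPDO, with a median of 0.54, and 6 in all passed without PPDO replicate 1. ASCL2, a WNT-driven crypt stem cell factor, was at 7.50 and 3.38 CPM in PPDO against 0.023 and 0.118 CPM in ductal-like cells (adjusted p = 0.00367). CFTR fell by 9.57 (adjusted p = 0.000508), from 943 and 795 CPM to 1.04 and 0.64, and SOX9 by 6.70 (adjusted p = 0.00133). SMOC2, a secreted crypt base protein, was also called lower in PPDO (adjusted p = 0.0257), but stood at only 0.14 and 0.55 CPM in ductal-like cells, beside 166 CPM in stellate-like cells of replicate 1 and 30 CPM in endocrine-like cells of replicate 2, and the part of RNA from those cells was not tested. Of 11 olfactomedin-domain genes 2 rose and 4 fell (median −0.86), among them OLFM2 at −4.77 (adjusted p = 0.000385), the adhesion receptor ADGRL3 at −6.62 (adjusted p = 0.00167) and OLFML3 at −2.99 (adjusted p = 0.0208), while GLDN rose by 5.66 (adjusted p = 0.00212). Of the 16 genes tied to OLFM4 4 rose and 3 fell (median −0.43), while 4 and 2 in all passed without PPDO replicate 1 or 2 and 12 and 11 without primary replicate 1 or 2. With library totals the 3 lists gave 4 higher and 5 lower, 1 and 7, and 3 and 6. LCN2 rose by 2.30 (adjusted p = 0.00348), the lysosomal protease CTSC by 2.95 (adjusted p = 0.0215) and NOTCH1 by 1.85 (adjusted p = 0.00249), while SOCS3, a cytokine feedback inhibitor, fell by 4.41 (adjusted p = 0.0293). SOCS3 stood at 0.75 and 0.91 CPM in PPDO against 39.9 and 5.88 CPM in ductal-like cells, so its 2 primary levels lay far apart.

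Genes were ranked by how closely their level followed the members over 31 sums, 18 of PPDO clusters and 13 of primary classes, each per library. Closest to summed AGR2 were CORO2A (r = 0.92), SHF (0.91), PRICKLE3 (0.91), FERMT1 (0.91), STARD5 (0.90) and PIGF (0.89). Closest to the gene model were WNT7B (0.96), COL17A1 (0.95), FERMT1 (0.95) and SHF (0.95), and closest to the extension TSPAN13 (0.87), WDR37 (0.84) and PTPRE (0.82). COL17A1, a hemidesmosome collagen, was at 692 and 669 CPM in PPDO and 3.74 and 2.92 CPM in ductal-like cells, and WNT7B, a WNT ligand, at 38.7 and 54.0 against 5.12 and 3.51. With LGR5 in primary duct cells, 1 of the 6 genes nearest to summed AGR2 rose, CORO2A by 2.35 on the log2 scale (adjusted p = 0.00571, edgeR with Benjamini-Hochberg), where 4.45% of all genes rose, and the other 5 lay between −0.18 and 1.09 (adjusted p from 0.319 to 0.848). The 2 genes nearest to the gene model stood higher with LGR5 in both primary libraries. COL17A1 was at 20.5 and 22.7 CPM with LGR5 and 3.40 and 2.17 without, and WNT7B at 21.6 and 14.1 against 4.78 and 3.11. FERMT1 and SHF, near both the gene model and the sum, are among the 5 genes above. For OLFM4 the nearest was FCN2 (0.85), followed by TENM2 (0.68), on very few UMIs. The sums share libraries and depth, and the coefficients are descriptions over 10560 genes.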

How the data were processed

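Single cells of 2 PPDO and 2 primary pancreas libraries were analysed from the deposited matrices of UMI counts per feature and cell, which the authors made with Cell Ranger from 10x 3′ v3.1 libraries against the pig genome with an annotation of their own that adds extended gene features; the submitters' processing notes name the builds Sscrofa11.1 and GRCh38. The authors also deposited the barcode and feature tables. Their correction for ambient RNA is not in these counts. Features of 1 gene (56060 features, 30282 identifiers) were summed. PPDO cells were kept at 1000 to 9000 features and up to 3% mitochondrial UMIs, and primary cells below 8%, from 3000 UMIs and above 400 or 800 features. Scrublet at scores of 0.25 and 0.15 removed 89 and 153 primary cells as doublets. Total UMIs kept were 300990276, 262372786, 74895565 and 118225217.

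Cells were clustered with scanpy 1.11.5 (2000 variable genes, 20 components, 15 neighbours, Leiden at 0.5) and named from at least 3 fixed markers, each in 10% of cells and 2-fold higher (1.25-fold in PPDO). AGR2, OLFM4 and LGR5 were left out of the variable genes before clustering. Counts were summed per library and class and tested with edgeR 4.0.16 quasi-likelihood (TMM, filterByExpr, Benjamini-Hochberg at 0.05), without a block for PPDO against ductal-like cells and with a library block otherwise. DESeq2 1.42.0 was an alternative. Genes named were the members, up to 4 called genes with the largest change per list, and 6 genes nearest in pattern. On simulated counts for PPDO against ductal-like cells (23137 genes), 11% of genes changed by 1 and 76% of those changed by 2 on the log2 scale were recovered. For acinar-like against ductal-like cells these were 2.11% and 57.7%, and for LGR5 status in primary ductal-like cells 41% and 75%. False calls were 4.4%, 6.45% and 2.52% of all calls in the 3 simulations. A class difference that did not pass may therefore have been missed. The members and lists were chosen with earlier results of these data known.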

Additional observations from a re-analysis of the deposited data

Results flagged for a closer look

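The effect of LGR5 status on AGR2 differed between primary ductal-like cells and PPDO by 4.92 on the log2 scale by the test of the difference itself (4.81 in primary cells, −0.11 in PPDO). This was the only value put to the rule, an adjusted p under 0.05, so no other value was screened. Groups of 2 libraries were too small to look for a library that stands apart.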

How the results depend on the processing

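AGR2 in PPDO over ductal-like cells kept its direction and call under 16 of 17 alternatives, and without each library in turn it lay between 3.49 and 3.65. The exception was the extension alone, 1.62. OLFM4 in the same comparison lost its call with DESeq2 (−2.05), without the filter on low counts (−1.95), with a replicate block (−2.0) and without a primary library (−2.29 to −1.68); without a PPDO library it fell under the filter. Replicate numbers did not pair the samples (correlation of deviations −0.010), and with the replicate block 8343 genes were called in place of 10288. For other classes over ductal-like cells, the gene model alone gave 0.027 for endothelial-like cells, −1.60 for immune-like cells and −9.25 for acinar-like cells, the last fitted against 0 UMIs and no bound. The extension alone gave 1.81 for immune-like cells, which then passed, 0.28 for acinar-like and 0.94 for endocrine-like cells, and library totals gave −2.71 for acinar-like cells. Leaving out a primary library gave 1.72 to 2.84 for endothelial-like, −0.89 to 0.67 for endocrine-like and −9.83 to −3.16 for stellate-like cells, where the lower value rests on a sum with 0 UMIs. These class values are log2 ratios of TMM-scaled CPM within the library that was left, without a fit of their own and without a test.

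For LGR5 status, the extension alone gave 0.12 in primary cells and 0.40 for the difference between primary and PPDO cells, library totals gave 0.053 in PPDO, and without the replicate block the difference was 4.86. In PPDO over ductal-like cells, genes called ran from 4566 to 10645 and pathway list genes from 26 to 51 without a library. By LGR5 status they ran from 1370 to 2195 in primary cells, from 222 to 5854 in PPDO and from 644 to 2126 for the difference, and without the replicate block they were 224, 1 and 92 in place of 1896, 3557 and 1814.

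The AGR2 share of PPDO minus ductal-like cells was 10.8 points at 1500 UMIs, 28.1 at 5000, 66.3 unthinned, 18.5 for the gene model and 1.84 for the extension. That of endothelial-like minus ductal-like cells was 6.65 at 1500 UMIs, 18.4 at 5000 UMIs, 27.8 unthinned and 0.464 for the gene model. It was 6.94 without primary replicate 1 and 16.1 without primary replicate 2. The OLFM4 share of PPDO minus ductal-like cells was 0.0136 at 1500 UMIs, −0.0741 at 5000, −0.246 unthinned and 0.0057 without primary replicate 1. For endothelial-like minus ductal-like cells it was −0.0936 at 5000, −0.312 unthinned and −0.0481 to 0 without a library. The feature splits, library totals, the study's own cell filter, the free RNA share from TFF2 and the list repeats (LGR5 splits included, there also by scaling and block) and share repeats without a library were chosen after seeing the data. No cluster of ductal-like cells held 10% of both libraries, and no member feature lacked an extension or isoform mark, so these alternatives gave no value. Causes were not tested. OLFM4 rested on 0 to 12 UMIs per sum, so its comparisons were limited by counting error.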
